A study of Mus musculus with 98 samples.

Results

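Peripheral tissue antigens are proteins that belong to 1 organ elsewhere in the body and are also made in the thymus, and the transcripts of 39 such named genes were examined in mouse thymic epithelial cells (TEC). The members were taken by name from a fixed list of genes restricted to pancreas, liver, gut, milk, thyroid, eye, brain, saliva and a few other tissues, and the rule that names them used no measured value, although earlier results of these data were known when the list was made. Because Spt1 is an older symbol of Mucl2, the 39 names stood for 38 genes, and all 38 were among the 39179 gene identifiers of the bulk count table. The series held 98 mouse samples of sorted thymic stroma, of which 84 were bulk RNA-seq libraries and the others droplet single-cell libraries.

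In the thymic medulla, epithelial cells transcribe very many genes of other organs in small amounts, a process called promiscuous gene expression, and display fragments of the proteins to developing T cells. T cells that bind these fragments strongly die or become regulatory T cells. The nuclear protein AIRE drives a large share of this transcription, and the zinc finger factor FEZF2 drives another share. A given antigen is usually found in only a minority of medullary cells at a time. Cortical epithelial cells, which support the earlier positive selection of T cells, are not known for this program.

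The bulk libraries came from wild-type mice and covered mTEC (medullary TEC) and cTEC (cortical TEC) at P0, the day of birth, and at 4 weeks, and mTEChi and mTEClo, the subsets of mTEC sorted as high and low, at 4 weeks only. Each of these 6 groups held 6 libraries made from live CD45- cells by an ultra-low input protocol, with 5785352 to 14454727 counts per library. The study kept wild-type C57BL/6 mice, but the labels gave neither the gates nor whether a library held 1 mouse or several, so the p-values below measure the spread between libraries. The bulk nonepithelial populations were gp38+CD26-, CD31+, Ly51+gp38- and gp38+CD26+ stroma of the same ages. The newborn single-cell libraries came from Ter119-CD45- stroma of 3 Tbx1+/-Crkl+/- mice, which carry 1 null copy of each gene and serve as a model of a human chromosomal deletion, and from 3 wild-type littermates; their cells were fixed before loading, and cell labels were those deposited. A further 8 single-cell libraries of wild-type nonepithelial stroma held 0 cells with a TEC label and were not used for the TEC comparisons.

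The sorted populations carried their defining transcripts. Psmb11, the cortical proteasome subunit, had a mean of 1288 CPM (counts scaled to a common library total) in cTEC at 4 weeks and 346 in cTEC at P0, against at most 15.05 in any mTEC group. Between mTEChi and mTEClo, Cd80, a costimulatory molecule of mature mTEC, had means of 59.5 and 11.6 CPM, and the chemokine Ccl21a of immature mTEC had means of 577 and 16464 CPM. In cTEC, Ccl21a had means of 2867 CPM at 4 weeks and 220 at P0, and Cd80 had 0.750 and 0.529 CPM. Transcripts of other cells moved with the groups too. The summed level of 10 thymocyte markers had a median of 1806 CPM in cTEC at 4 weeks and 32.9 in cTEC at P0, that of 5 erythroid genes was 3013 in mTEClo and 281 in mTEChi, and that of 6 dendritic, B and myeloid genes was 451 in mTEChi and 102 in mTEClo. The part of these transcripts, and of Ccl21a in cTEC, in the results below was not tested. In bulk libraries, fewer expressing cells and less RNA per cell cannot be told apart.

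The promoters of 8 members are shown: 3 caseins of chromosome 5 and the hormone genes Ppy and Pyy of chromosome 11 because they lie beside other members, Gcg as a hormone gene that stands alone, and Reg3g and Bpifa1 because they were abundant. Each is the 100 bases before the annotated start in RefSeq (build GRCm38.p6), written 5′ to 3′ on the strand of the gene, and capitals mark TATAA or TATATA, the letters searched between 45 and 16 bases before the start on the gene's strand.
The windows were chr5:87699426-87699525 (minus strand) for Csn2, chr5:87666108-87666207 (plus strand) for Csn1s1, chr5:87774350-87774449 (plus strand) for Csn1s2a and chr11:102101320-102101419 (minus strand) for Ppy.
Those of the other 4 genes were chr11:102107833-102107932 (minus strand) for Pyy, chr2:62483654-62483753 (minus strand) for Gcg, chr6:78468875-78468974 (minus strand) for Reg3g and chr2:154142780-154142879 (plus strand) for Bpifa1.
Csn2: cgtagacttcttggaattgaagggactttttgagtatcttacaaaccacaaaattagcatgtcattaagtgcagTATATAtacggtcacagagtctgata
Csn1s1: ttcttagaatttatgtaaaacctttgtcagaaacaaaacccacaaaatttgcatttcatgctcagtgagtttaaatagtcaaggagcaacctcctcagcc
Csn1s2a: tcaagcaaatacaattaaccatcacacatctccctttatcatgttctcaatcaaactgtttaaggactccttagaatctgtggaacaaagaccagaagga
Ppy: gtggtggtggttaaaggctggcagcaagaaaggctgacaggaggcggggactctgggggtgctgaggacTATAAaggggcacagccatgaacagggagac
Pyy: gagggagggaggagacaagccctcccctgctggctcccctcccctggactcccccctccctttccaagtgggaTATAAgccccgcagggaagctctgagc
Gcg: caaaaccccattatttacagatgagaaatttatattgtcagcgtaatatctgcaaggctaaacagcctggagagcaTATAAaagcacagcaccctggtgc
Reg3g: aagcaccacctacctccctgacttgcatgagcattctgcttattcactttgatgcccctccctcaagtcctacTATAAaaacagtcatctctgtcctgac
Bpifa1: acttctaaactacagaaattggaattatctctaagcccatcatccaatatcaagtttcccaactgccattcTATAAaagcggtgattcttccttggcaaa
These letters stood near the start in 12 of the 31 members with a promoter in the table (38.7%) and in 5.45% of 27025 genes. Besides the 6 printed with capitals they were Bglap, Cela1, Crp, Mobp, Muc6 and Mucl2. Anywhere in the 300 bases around the start and on either strand, the letters were in 21 members (67.7%) and in 29.8% of all genes. The members' promoters also held few CG pairs, with a median of 4 against 7 over all genes, and 22 members (71.0%) had 5 or fewer against 43.1% of all genes. A match is a description of the letters and not of a working site.

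The members lay on 15 chromosomes (GRCm38), and 11 of the 38 had another member within 200 kb. The casein genes formed 1 such group on chromosome 5, where Csn1s1 ended 10.0 kb from Csn2 and Csn2 lay 74.9 kb from Csn1s2a. The 3 fibrinogen chain genes stood together on chromosome 3, with gaps of 11.03 kb between Fgg and Fga and 6.51 kb between Fga and Fgb. Ppy and Pyy were 5.36 kb apart on chromosome 11, and Apoa1 and Apoc3 were 2.47 kb apart on chromosome 9. Exons of 6 members shared bases with another annotated gene, on the same strand in Fabp9, Mobp and Pcp4, so reads there could have been counted for the other gene or left out.

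Csn2, Reg3g and Bpifa1 dominated the antigen transcripts of mTEChi, and nearly every other member was present at a lower level. In the 6 mTEChi libraries, 36 or 37 of the 38 members had at least 1 count, and 36 had a count in every library. Rbp3, a retinoid-binding protein of the retina, was at 0 in each, and Muc6, a gastric mucin, had a highest value of 0.327 CPM. The summed level of the members was between 4750 and 6431 CPM with a median of 5899, and Csn2, Reg3g and Bpifa1 made up 80.8% of it.

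**Figure D1:**
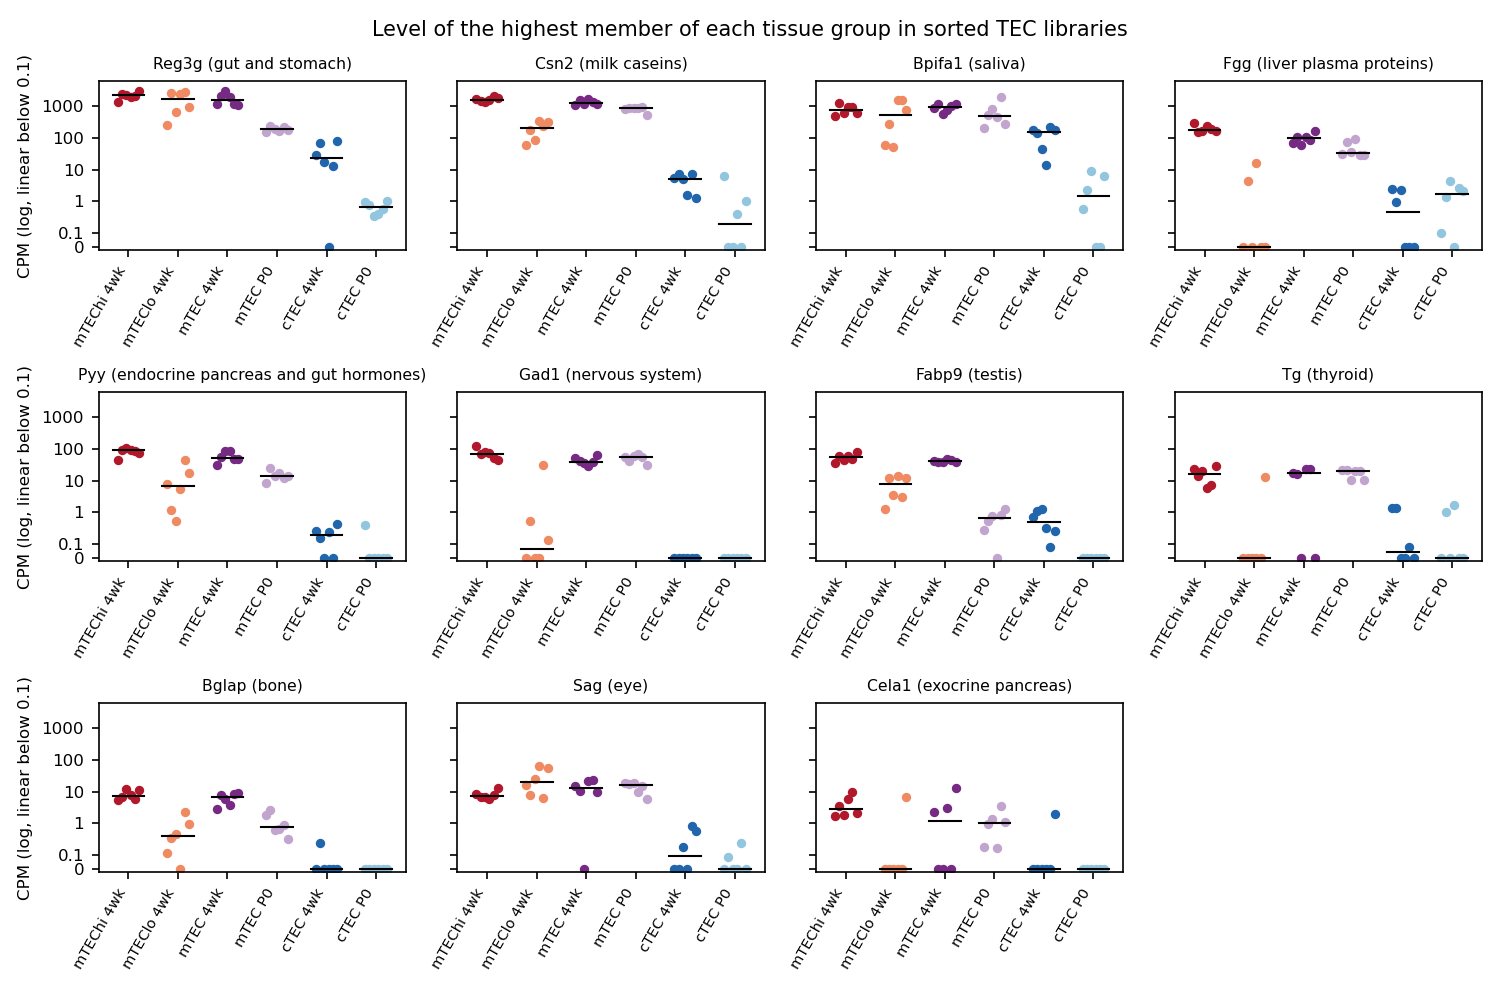
Level of the member with the highest mean in mTEChi of each tissue group, in CPM (log axis, linear below 0.1), in the 6 libraries of each sorted TEC group; each point is 1 library and each line the median. Csn2 lay between 1338 and 2105 CPM in mTEChi and at or below 7.19 CPM in cTEC, and Reg3g overlapped between mTEChi and mTEClo.

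Among members secreted by mucosa, Reg3g, an antimicrobial lectin of the gut, had 1351, 2174 and 2946 CPM as the lowest, median and highest mTEChi libraries. Bpifa1, a secreted protein of the airway lining, had 502, 782 and 1247 CPM in the same order. Ltf, the iron-binding lactoferrin of milk and tears, had 8.43, 38.9 and 74.7 CPM. S100g, the intestinal calcium-binding protein calbindin-D9k, varied least of the 36 members with a count in every library, with 15.3, 18.3 and 19.8 CPM and a coefficient of variation (SD over mean) of 0.0923.

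The 4 caseins, the calcium-carrying proteins of milk, spanned a wide range although they are neighbours. Csn2 (beta-casein) had 1338, 1618 and 2105 CPM in mTEChi, with a mean of 1644 ± 275 (SD, n = 6). Csn1s2a had 28.3, 39.9 and 54.2 CPM, Csn1s1 had 5.68, 10.0 and 15.1 CPM, and Csn3 had 2.68, 4.12 and 7.52 CPM. The fibrinogen chains also differed: Fgg had a mean of 202 ± 59.8 CPM, Fgb had a median of 128 CPM and Fga a median of 7.26 CPM.

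Of the other liver proteins, Apoa1, the main protein of high-density lipoprotein, was highest with 94.004, 119.2 and 175.3 CPM, whereas Alb, the albumin of plasma, had 4.59, 6.27 and 8.36 CPM. The hormone genes ranged from Pyy (peptide YY of the gut) at 45.9, 89.5 and 102.7 CPM and Gcg (glucagon) at 33.7, 65.6 and 99.4 CPM to Ins2 (insulin) at 1.97, 4.43 and 7.16 CPM. In the nervous system group, Gad1, which makes the transmitter GABA, had 45.8, 71.3 and 124.2 CPM and Mbp (myelin basic protein) 41.2, 50.1 and 56.0 CPM. Fabp9 of testis had 36.4, 54.2 and 80.6 CPM, Tg (thyroglobulin) 5.74, 16.6 and 28.1 CPM, Bglap (osteocalcin of bone) 5.35, 7.26 and 11.9 CPM and Sag (the arrestin of photoreceptors) 5.67, 7.21 and 12.8 CPM. Of the 36 members with a count in every mTEChi library, Cela1, a pancreatic elastase, varied most, with 1.73, 2.76 and 9.88 CPM and a coefficient of variation of 0.779. The median coefficient over the 36 was 0.315.

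Because CPM does not allow for gene length, levels between genes were also taken per kilobase of annotated exon. On that scale Reg3g led mTEChi with 1036 ± 253 CPM per kb (SD, n = 6), followed by Bpifa1 at 525 ± 183 and Csn2 at 237 ± 39.7. Exons were joined over all annotated transcripts. For Csn2 they held 6926 bases, nearly the whole gene (87692624 to 87699630 on chromosome 5). A shorter transcript would have a higher value per kb, so the place of Csn2 behind Reg3g and Bpifa1 depends on this length. Pyy at 131.2 ± 32.5, Apoa1 at 103.4 ± 24.2, Fgg at 96.5 ± 28.6 and Fabp9 at 85.1 ± 23.6 came next. The gap between Pyy and Apoa1 was smaller than the SD of Pyy and larger than that of Apoa1, and each later gap was smaller than the SDs on either side of it.

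The first comparison asked how antigen transcripts differ between mTEChi and mTEClo at 4 weeks. Of the 37 members tested, 20 were higher in mTEChi and 0 were lower at an adjusted p under 0.05 (edgeR quasi-likelihood test, Benjamini-Hochberg over all 18847 genes), where 17.9% of all genes were higher and 5.8% lower. The median log2 fold change was 3.12 over members and 0.25 over all genes. The libraries of the groups did not overlap for 23 members, each higher in mTEChi (9.91% of all genes were apart this way and 4.58% the other way). All 20 called members were among them. Each TEC group held 3 libraries titled TXCK and 3 titled DFCK, and within these sets 9 and 16 members were called higher and 0 lower, where 6.69% and 8.1% of all genes were higher.

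In mTEClo 4 members with counts in every mTEChi library, Csn1s1, Fga, Alb and Mobp, were at 0 in all 6 libraries. The fold was at least 202 for Csn1s1, 155.1 for Fga, 125.002 for Alb and 42.95 for Mobp, against a floor of 3 counts over the mTEClo group. A member at 0 in 1 group of a comparison passed the filter on low counts through other groups and could be called in 1 direction only. Their fitted log2 fold changes, which are no bounds, were 10.00 ± 1.32 (SE, adjusted p = 2.24e-05), 9.65 ± 1.72 (0.000476), 9.32 ± 2.07 (0.00205) and 7.75 ± 1.82 (0.00443) from the edgeR fit. Within DFCK libraries the calls of Fga, Alb and Mobp were lost (adjusted p = 0.0617 to 0.118, edgeR), and with the replicate block those of Csn1s1, Fga and Alb (0.0549 to 0.0561). Mobp is a myelin protein, and the other 3 belong to milk and plasma.

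The liver plasma proteins were higher in mTEChi in 7 of 11. Fgg was at 150 to 305 CPM in mTEChi, and in mTEClo it was at 0 in 4 libraries and at most 16.2 CPM. Its log2 fold change was 6.10 ± 1.10 (SE, adjusted p = 0.000119, edgeR). Fgb had a highest mTEClo value of 9.74 CPM against a lowest mTEChi value of 66.9, and a log2 fold change of 6.53 ± 1.21 (adjusted p = 0.000376, edgeR).

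The lipoprotein members differed by less. Apoa1 had 6.97, 37.6 and 81.1 CPM in mTEClo, below every mTEChi library, and a log2 fold change of 1.97 ± 0.52 (adjusted p = 0.00533, edgeR), the smallest of the called members. Apoc3, an inhibitor of lipoprotein lipase, had 0.347, 3.35 and 10.7 CPM in mTEClo and a log2 fold change of 2.45 ± 0.75 (adjusted p = 0.0175, edgeR). Apoa1 was not called within TXCK libraries (1.23, adjusted p = 0.217, edgeR), and Apoc3 was called neither in TXCK (1.79, 0.172) nor in DFCK libraries (3.88, 0.0892) nor with the block (2.91, 0.0531). Apoa2, another protein of high-density lipoprotein, was also called, at 3.43. Ttr and Ambp did not pass the test (log2 fold changes of 3.55 and 2.91) although their libraries did not overlap, and the acute-phase protein Crp had -1.43, with mTEClo libraries between 22.2 and 87.5 CPM.

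Of the caseins 3 of 4 were higher in mTEChi. Csn2 had 59.4, 209 and 333 CPM in mTEClo, and its log2 fold change was 3.29 ± 0.57 (adjusted p = 7.08e-05, edgeR). Csn1s2a was called at 4.63, and Csn3, with 1.68, was not. Of the hormone genes 3 of 6 were higher: Pyy at 3.002 ± 0.68 (SE, adjusted p = 0.00151, edgeR), Ins2 at 4.28 and the pancreatic polypeptide gene Ppy at 4.08. Pyy had 0.543, 6.51 and 42.9 CPM in mTEClo, so its highest library came close to the lowest mTEChi library. Gcg and Chga had log2 fold changes of -0.94 and -0.69 and overlapped widely.

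In the nervous system group 3 of 4 were higher. Gad1 had 0, 0.0665 and 31.1 CPM in mTEClo and a log2 fold change of 4.06 ± 1.11 (adjusted p = 0.00953, edgeR), with most of the mTEClo signal in 1 library. Without that library, mTEClo replicate 5, the fitted values were 9.14 for Gad1 and 13.59 for Fgb, and both stayed called. The Gad1 call was lost in the fit of these groups alone (4.00, adjusted p = 0.0805) and in TXCK libraries (2.72, 0.262), and that of Fgb in TXCK libraries (5.63, 0.0522), all by edgeR. Pcp4, a small calmodulin-binding protein of Purkinje cells, was called at 3.95, and Mbp, at 0.86, was not. Fabp9 had 1.24, 7.73 and 14.0 CPM in mTEClo, with a log2 fold change of 3.12 ± 0.62 (adjusted p = 0.00049, edgeR). Bglap had 0, 0.400 and 2.33 CPM there and 3.79 ± 0.99 (adjusted p = 0.00619, edgeR). Within TXCK libraries Pyy (2.24, adjusted p = 0.0888) and Bglap (3.18, 0.175) and within DFCK libraries Fabp9 (3.28, 0.0563) were not called by edgeR. S100g at 3.87 and the salivary Mucl2 at 3.51 completed the called members.

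The abundant mucosal members did not pass. Reg3g had 261, 1649 and 2870 CPM in mTEClo, a range that covered most of mTEChi, and a log2 fold change of 0.72 ± 0.56 (SE, adjusted p = 0.418, edgeR). Bpifa1 had 53.3, 512 and 1557 CPM and 0.48 ± 0.73 (adjusted p = 0.723, edgeR). Ltf had 2.04, 157 and 565 CPM and a log2 fold change of -2.23, the lowest of all members tested, and did not pass. Sag had 6.14, 19.8 and 62.9 CPM and -1.57 ± 0.85 (adjusted p = 0.202, edgeR). Tg (3.19 ± 1.56, adjusted p = 0.148, edgeR) and Cela1 (2.13 ± 1.75, adjusted p = 0.448, edgeR) had a median of 0 CPM in mTEClo, but 1 library reached 12.9 CPM for Tg and 1 reached 6.92 CPM for Cela1. Without mTEClo replicate 6 both were called, Tg at 10.70 (adjusted p = 0.000661, edgeR) and Cela1 at 8.74 (0.00793).

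**Figure D2:**
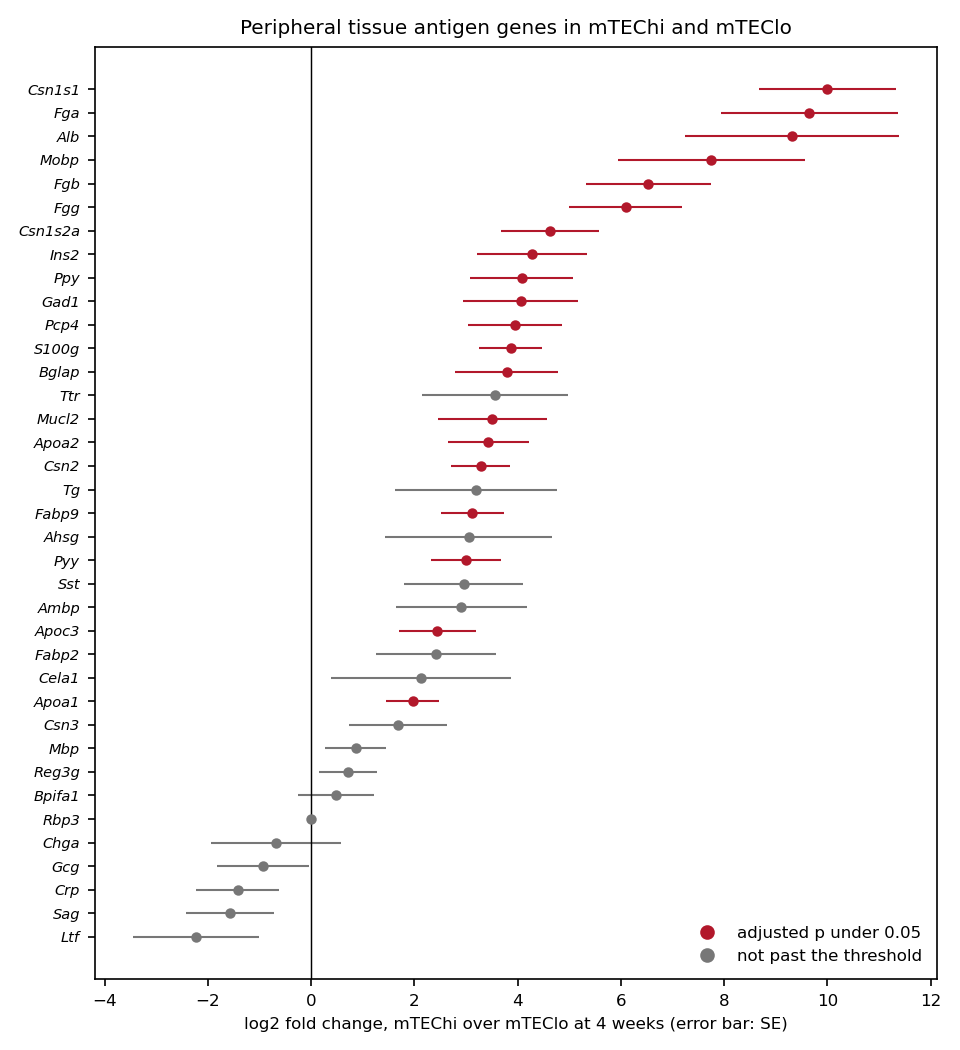
Log2 fold change of each member tested, mTEChi over mTEClo at 4 weeks, with its SE, derived from the test statistic, as the error bar. Red points passed an adjusted p of 0.05 and grey points did not. The 20 called members lay between 1.97 and 10.00, and 0 members were called lower.

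The mTEClo libraries varied far more among themselves than the mTEChi libraries. Their summed member level ran from 823 to 5821 CPM, a range that reached into that of mTEChi. Among the 13 members with counts in every library of both groups, the coefficient of variation was larger in mTEClo in 13, with medians of 0.758 and 0.244. Between 18 and 27 members were detected per mTEClo library, which held 7518907 to 12023605 counts against 12151673 to 14454727 in mTEChi, and the part of depth in this count was not tested.

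The 2 regulators Aire and Fezf2 were also higher in mTEChi. Aire had 16.03, 37.1 and 96.1 CPM in mTEClo and 193, 210 and 284 CPM in mTEChi, a log2 fold change of 2.55 ± 0.70 (adjusted p = 0.00789, edgeR). Fezf2 had 196, 240 and 265 CPM in mTEClo and 495, 656 and 695 CPM in mTEChi (1.67 ± 0.37, adjusted p = 0.00134, edgeR). Of 12 listed regulators of promiscuous expression 3 were higher, the third being the deacetylase gene Sirt1 at 2.32, and 0 were lower, where 17.9% of all genes were higher. The median of the 12 was -0.16 against 0.25 over all genes.

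A second list of 30 organ-restricted genes that were not members had 8 higher and 0 lower of 28 tested, with a median of 1.80 against 0.25 over all genes, of which 17.9% were higher. Gfap of astrocytes and the pancreatic lipase Pnlip were at 0 in all 6 mTEClo libraries, and Tnnt2 of heart muscle (1.99) and Resp18 (1.78) were the smallest of the called genes. Among 18 transcription factors that set the identity of peripheral cell types, 2 were higher in mTEChi and 2 were lower, where 17.9% of all genes were higher and 5.8% lower. Foxa2 and Hnf4a, factors of gut and liver, were at 0 in mTEClo, while Myog of muscle (-1.63) was among those lower in mTEChi. These lists were described by counts only.

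The second comparison set mTEC against cTEC at 4 weeks. Of the 37 members tested 34 were higher in mTEC and 0 were lower (edgeR, adjusted p under 0.05), where 26.4% of all genes were higher and 11.5% lower. The median log2 fold change was 6.74 over members, or 6.50 with members at 0 in cTEC set to their bound, against 0.24 over all genes. The libraries did not overlap for 24 members, all higher in mTEC (9.42% of all genes were apart this way and 8.1% the other way). Within TXCK and DFCK libraries 32 and 24 members were called higher (16.8% and 9.94% of all genes). In cTEC 12 members were at 0 in every library and could be called higher only, and 12 to 18 members were detected per library.

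The largest fitted differences were in members at 0 in cTEC, where the fitted value is no bound and the fold against the floor is. Fgb had 18.1, 53.5 and 68.5 CPM in mTEC, at least 1241-fold above cTEC, with a fitted log2 fold change of 12.17 ± 1.80 (SE, adjusted p = 1.02e-05, edgeR). Gad1 had 29.5, 39.1 and 61.8 CPM, at least 1083-fold (11.96 ± 1.83, adjusted p = 1.71e-05, edgeR), and Csn1s2a had 21.2, 36.5 and 59.2 CPM, at least 909-fold (11.82 ± 1.44, adjusted p = 6.64e-07, edgeR). Csn1s1 was at least 290-fold higher (9.92 ± 1.30, adjusted p = 7.31e-06, edgeR), with 1 or more mTEC libraries at 0. Sst, the hormone somatostatin, was at least 237-fold higher (9.86 ± 1.61, adjusted p = 1.94e-05, edgeR).

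The smallest called difference was that of Bpifa1, which cTEC also contained. It had 14.1, 155.6 and 217 CPM in cTEC and 572, 914 and 1175 CPM in mTEC, a log2 fold change of 2.94 ± 0.79 (SE, adjusted p = 0.00361, edgeR), without overlap. Within DFCK libraries its call was lost (2.85, adjusted p = 0.097, edgeR). Reg3g had 0, 22.6 and 77.2 CPM in cTEC and 1107, 1592 and 3054 CPM in mTEC (5.76 ± 0.69, adjusted p = 4.5e-08, edgeR). Csn2 had 1.24, 5.16 and 7.19 CPM in cTEC and 1095, 1278 and 1706 CPM in mTEC (8.27 ± 0.72, adjusted p = 7.12e-11, edgeR).

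The next smallest were Ltf, at 3.44 ± 1.30 (SE, adjusted p = 0.0368, edgeR) with its cTEC signal of 31.1 CPM in 1 library (replicate 6), and Crp at 4.29 ± 0.91 (adjusted p = 0.000359, edgeR). The Ltf value was 9.12 without cTEC replicate 6, and its call was lost when any other cTEC library or mTEC replicate 5 or 6 was left out (2.64 to 3.21, adjusted p = 0.0587 to 0.11, edgeR). The Ltf call was also lost in the fit of these groups alone (adjusted p = 0.189), in TXCK libraries (0.0962) and with the replicate block (0.0844). With the block the Crp call was lost too (4.92, adjusted p = 0.0571, edgeR). Tg at 4.87 ± 1.70 (adjusted p = 0.0228, edgeR) and Apoc3 at 5.67 ± 0.88 (adjusted p = 9.29e-06, edgeR) followed. The Tg call was lost in the fit of these groups alone (4.87, adjusted p = 0.0623), in DFCK libraries (3.63, 0.208) and with the replicate block (5.46, 0.0816). The members with the highest mean level of their tissue groups in mTEChi were called too, among them Fgg (6.86 ± 1.16, adjusted p = 1.94e-05, edgeR), Pyy (8.34 ± 0.91, adjusted p = 7.33e-09, edgeR), Fabp9 (6.11 ± 0.72, adjusted p = 1.05e-07, edgeR), Bglap (6.99 ± 1.17, adjusted p = 2.71e-05, edgeR) and Sag (5.74 ± 1.04, adjusted p = 5.14e-05, edgeR). Of the members named in these sentences Ltf, Tg and Sag overlapped between the groups.

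The 3 members that were not called had log2 fold changes of 3.37 in Cela1 (adjusted p = 0.158, edgeR), 1.65 in Chga (0.339) and 0.77 in Mbp (0.323). Without cTEC replicate 6 Cela1 had 8.15 (adjusted p = 0.0099, edgeR) and was called. Mbp had 6.17, 19.6 and 26.9 CPM in cTEC at 4 weeks, where thymocyte markers were high. Chga, the granule protein chromogranin A, had 0, 2.31 and 40.0 CPM there. One mTEC library, replicate 3, held only 26 detected members, against 34 to 37 in the other 5. Aire (8.55 ± 0.97, adjusted p = 1.57e-08, edgeR) and Fezf2 (6.35 ± 0.46, adjusted p = 1.37e-12, edgeR) were higher in mTEC.

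The same comparison was made at P0. Of the 37 members 35 were higher in mTEC and 0 lower (edgeR), where 29.2% of all genes were higher and 8.28% lower. The median log2 fold change was 7.06, or 5.43 with bounds, against 0.35 over all genes, and 30 members did not overlap (18.6% of all genes, and 9.04% the other way). Within TXCK and DFCK libraries 29 and 25 members were called higher (17.8% and 11.5% of all genes). In cTEC at P0 23 members were at 0 in all 6 libraries, so that they could be called higher only, and 6 to 8 members were detected per library, while mTEC at P0 held 32 to 37.

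Gad1 was highest relative to cTEC, with 30.3, 55.4 and 69.1 CPM in mTEC, at least 1104-fold (fitted log2 fold change 12.17 ± 1.86, SE, adjusted p = 1.43e-05, edgeR). Gcg had 16.6, 23.3 and 45.3 CPM, at least 577-fold (11.28 ± 1.76, adjusted p = 9.11e-06, edgeR), Fgb was at least 552-fold higher (11.16 ± 1.80, adjusted p = 2.95e-05, edgeR) and Csn1s2a at least 250-fold (10.05 ± 1.41, adjusted p = 4.51e-06, edgeR). Apoa1 had 33.27, 42.8 and 56.1 CPM in mTEC and a single count in cTEC (10.72 ± 0.91, adjusted p = 2.63e-11, edgeR). In the last case the fit rests on that 1 count.

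The abundant members were high in newborn mTEC already. Csn2 had 518, 852 and 924 CPM in mTEC and at most 6.20 CPM in cTEC (9.39 ± 0.77, adjusted p = 1.18e-11, edgeR). Reg3g had 152, 187.1 and 228 CPM in mTEC and at most 0.988 CPM in cTEC (8.18 ± 0.81, adjusted p = 9.21e-10, edgeR). Bpifa1 had 204, 495 and 1949 CPM in mTEC and at most 9.31 CPM in cTEC (7.93 ± 1.01, adjusted p = 1.36e-07, edgeR). None of the 3 overlapped.

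The smallest called differences at P0 were those of Mbp at 3.79 ± 0.65 (SE, adjusted p = 2.34e-05, edgeR), Crp at 4.40 ± 0.92 (0.000297), Fgg at 4.82 ± 1.05 (0.000482), Ins2 at 4.84 ± 1.11 (0.00102, at least 6.64-fold) and Tg at 5.26 ± 1.73 (0.016). Fgg had 28.6, 33.7 and 88.9 CPM in mTEC and 0, 1.70 and 4.48 CPM in cTEC. The members highest in mTEChi in the other tissue groups were all called, with Pyy at 7.74, Sag at 7.71, Cela1 at 6.76, Bglap at 6.71 and Fabp9 at 5.78. Ins2 (adjusted p = 0.0592 and 0.0776), Tg (0.0923 and 0.128) and Cela1 (0.155 and 0.0912) were not called within TXCK or DFCK libraries, nor was Crp within TXCK (0.0705), all by edgeR. Chga (0.51, adjusted p = 0.806, edgeR) and Alb (-0.60, 0.798) were not called, and Alb had a median of 0 CPM in both groups. Aire (9.04 ± 0.99, adjusted p = 7.06e-09, edgeR) and Fezf2 (14.02 ± 0.74, adjusted p = 2.85e-16, edgeR) were higher in mTEC, the value of Fezf2 resting on 1 count in cTEC.

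**Figure D3:**
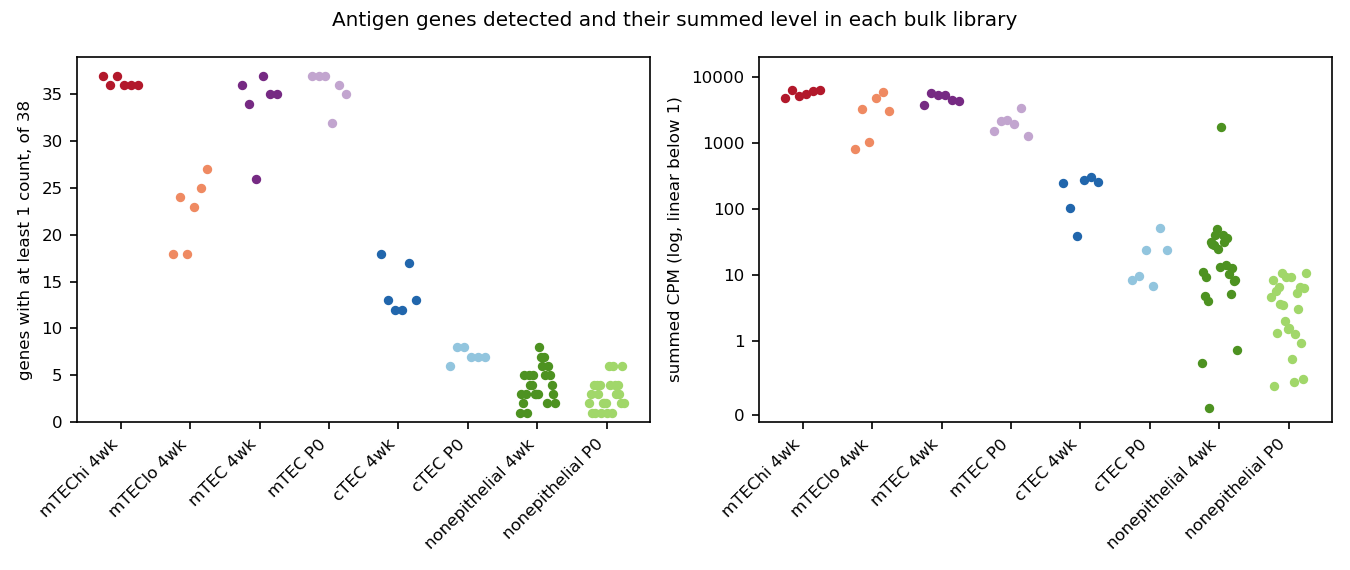
Number of the 38 members with at least 1 count (left) and their summed level in CPM (right, log axis, linear below 1) in every bulk library, by sorted population and age; each point is 1 library. The mTEChi libraries held 36 to 37 members and cTEC at P0 held 6 to 8, and 1 nonepithelial library at 4 weeks stood apart at 1751 CPM.

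The third comparison followed mTEC from P0 to 4 weeks. Only 3 of the 37 members were called, each higher at 4 weeks (3.72% of all genes were higher and 2.83% lower, edgeR), and the median log2 fold change was 1.62 over members against 0.00 over all genes. The groups did not overlap for 11 members, all higher at 4 weeks (2.94% of all genes, and 3.4% lower). Within TXCK and DFCK libraries 2 and 2 members were called (1.85% and 0.449% of all genes were higher), while DESeq2 called 11 higher (6.21% of all genes) and the edgeR fit of these groups alone 9 of 36 tested (3.64%). The summed level had a median of 2020 CPM at P0 and 4890 CPM at 4 weeks, and without Csn2, Reg3g and Bpifa1 the medians were 367 and 845 CPM. Transcripts of other cells moved with age in these libraries: the erythroid sum had medians of 27.6 CPM at P0 and 1551 at 4 weeks, and the sum of dendritic, B and myeloid genes had 178 and 339. Their part in the change was not tested.

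Fabp9 changed most of the 3: it had 0, 0.652 and 1.25 CPM at P0 and 37.7, 40.1 and 48.03 CPM at 4 weeks, a log2 fold change of 6.14 ± 0.72 (SE, adjusted p = 1.27e-06, edgeR). Apoc3 had 0.274, 0.562 and 1.31 CPM at P0 and 6.81, 13.48 and 19.8 CPM at 4 weeks (4.34 ± 0.82, adjusted p = 0.000893, edgeR). Reg3g rose from 152 to 228 CPM at P0 to 1107 to 3054 CPM at 4 weeks (3.27 ± 0.61, adjusted p = 0.000516, edgeR). Reg3g was not called within TXCK libraries (3.03, adjusted p = 0.132, edgeR), nor Apoc3 within DFCK libraries (4.47, 0.23). These come from testis, liver and gut, respectively, and the other members of the liver and gut groups were not called.

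A further 8 members had no overlap between ages but missed the threshold. Ins2 (3.04, adjusted p = 0.0693), Bglap (2.48, 0.12), Pyy (1.997 ± 0.65, 0.0599), S100g (1.62, 0.0789), Apoa1 (1.40, 0.095) and Csn2 (0.81 ± 0.52, 0.472) were among them, with adjusted p values from edgeR, and the others were Ppy at 2.05 and Apoa2 at 1.82. Some of them were called by an alternative: Pyy (adjusted p = 0.0159) and Bglap (0.00706) by DESeq2, and Pyy (0.00261) and Csn2 (0.0131) in the edgeR fit of these groups alone. Bglap had 0.312, 0.774 and 2.61 CPM at P0 and 2.91, 6.74 and 8.69 CPM at 4 weeks. Several members had like levels at both ages within a wide error: Gad1 at -0.21 ± 0.98, Sag at -0.01 ± 0.83, Tg at -0.31 ± 1.43 and Bpifa1 at 0.45 ± 0.73. Fgg (1.14 ± 0.88) and Cela1 (1.44 ± 1.71) were not called either. Aire (-0.34 ± 0.66, adjusted p = 0.89, edgeR) and Fezf2 (0.00 ± 0.36) did not change detectably.

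The mTEC sort at 4 weeks lay between its subsets in the medians of Fgg and Pyy, but not in all members. By the medians given above, Reg3g lay below both subsets and Bpifa1 above both. Fgg had a median of 96.0 CPM in mTEC, 178 in mTEChi and 0 in mTEClo, and Pyy had 52.02, 89.5 and 6.51 CPM. Rbp3, at 0 in both subsets, had 0, 3.09 and 17.8 CPM in mTEC. No test was made between mTEC and its subsets.

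In cTEC, 10 of the 37 members were higher at 4 weeks than at P0 and 0 were lower (10.1% of all genes were higher, edgeR), with a median log2 fold change of 1.34, or 1.14 with bounds. At P0 23 members were at 0 in all 6 cTEC libraries and could be called higher only. In the edgeR fit of these groups alone only 6 members passed the filter on low counts, and 2 were higher (12.3% of all genes). Within TXCK and DFCK libraries 5 and 5 were called (5.15% and 1.95% of all genes were higher). Only Bpifa1 and Fabp9 did not overlap (5.06% of all genes, and 4.6% lower). Bpifa1 had 0, 1.45 and 9.31 CPM at P0 and 14.1, 155.6 and 217 CPM at 4 weeks (5.44 ± 0.91, SE, adjusted p = 5.8e-05, edgeR). Fabp9 was at 0 at P0 and had 0.0791, 0.502 and 1.28 CPM at 4 weeks, at least 12.8-fold (5.81 ± 1.01, adjusted p = 0.000157, edgeR). Reg3g had at most 0.988 CPM at P0 and a median of 22.6 CPM at 4 weeks (5.69 ± 0.76, adjusted p = 1.35e-06, edgeR).

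Of the other called members, Apoa1 (5.26 ± 1.01, adjusted p = 0.000332), Apoc3 (4.55 ± 0.98, 0.00174), Ppy (4.15 ± 1.23, 0.0226) and S100g (3.29 ± 0.72, 0.0254) each had a highest value under 3 CPM at 4 weeks, with adjusted p values from edgeR. Ltf (8.83 ± 2.40, adjusted p = 0.0124, edgeR) rested on 1 library, and without cTEC replicate 6 at 4 weeks Ltf had 3.09 (adjusted p = 0.597) and Ppy 1.30 (0.56). S100g was not called without replicate 3 (2.77, adjusted p = 0.0919, edgeR). Mbp (2.56 ± 0.62, adjusted p = 0.00449, edgeR) had medians of 2.60 and 19.6 CPM, and its call was lost in the fit of these groups alone (adjusted p = 0.0608), in TXCK (0.0811) and in DFCK libraries (0.117). Csn2 (1.93 ± 0.63, adjusted p = 0.0368, edgeR) had medians of 0.193 and 5.16 CPM. The Csn2 call was lost in 9 of the 12 fits that left out 1 cTEC library, and the value was 4.12 without cTEC replicate 1 at P0. It was also lost in the fit of these groups alone (1.91, adjusted p = 0.291, edgeR) and in TXCK libraries (0.752, 0.839). The thymocyte markers were all 10 higher at 4 weeks in these libraries, and fibroblast genes had summed medians of 718 and 70.1 CPM. Of the mTEC transcripts named above, Ccl21a had means of 2867 CPM at 4 weeks and 220 at P0 in cTEC, and Cd80 had 0.750 and 0.529 CPM. The part of such cells in the change was not tested. Fezf2 was also higher (7.67 ± 0.77, adjusted p = 6.21e-09, edgeR), with a median of 5.49 CPM at 4 weeks and a single count at P0, on which its value rests, and Aire was not (0.16 ± 0.99, adjusted p = 1, edgeR).

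The age changes of mTEC and cTEC, which were compared directly by their difference, differed in 3 members. Bpifa1 changed by less in mTEC than in cTEC (difference in log2 fold change -4.99 ± 1.13, SE, adjusted p = 0.00579, edgeR), and so did Mbp (-3.02 ± 0.85, adjusted p = 0.0313, edgeR). Alb had a difference of 9.71 ± 2.37 (adjusted p = 0.0163, edgeR), with all cTEC libraries at 4 weeks at 0 and medians of 0 in mTEC and cTEC at P0. Without cTEC replicate 5 at P0, Alb had 7.17 (adjusted p = 0.0799, edgeR) and Mbp -2.88 (0.0515), and 0 members were called within TXCK or DFCK libraries alone. Of all genes 1.24% had a larger change in mTEC and 3.54% a smaller one. The comparisons of mTEC with cTEC and those of age draw on the same libraries, so their calls are not independent.

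The nonepithelial populations gave the background. At 4 weeks 36 of 36 members tested were higher in mTEChi than in the mean of the 4 populations (40.8% of all 18642 genes were higher, edgeR), with a median log2 fold change of 9.55 against 0.64 over all genes. DESeq2 called 32 of the 36 higher (35.7% of all genes). Each nonepithelial library held 1 to 8 of the 38 members, and 21 to 28 members were at 0 in a whole population, so a member at or near 0 there could be called higher only. The largest differences were those of Fgg (14.30 ± 1.12, SE, adjusted p = 1.28e-10, edgeR), Csn2 (13.79 ± 0.85, 1.91e-16), Fgb (13.61 ± 1.11, 4.28e-09), Apoa1 (12.57 ± 0.81, 9.97e-15) and Csn1s2a (12.01 ± 0.91, 1.45e-09). The smallest were those of Cela1 (4.19 ± 1.14, adjusted p = 0.00192, edgeR), Mobp (5.62 ± 0.95, 1.99e-05), Ahsg, the plasma protein fetuin-A (6.19 ± 1.15, 3.51e-05), Mbp (6.25 ± 0.78, 1.35e-08) and Bglap (7.06 ± 0.97, 9.91e-08).

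One nonepithelial library stood apart. Replicate 2 of gp38+CD26+ at 4 weeks had 25702 counts in all and a summed member level of 1751 CPM, against at most 40.0 CPM in the other 5 of its group. The same library held 17858 CPM of 5 pan-epithelial genes and 31865 CPM of 9 cTEC genes. Without it 36 of 36 members were also called by edgeR, where 43.2% of all genes were higher.

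In single cells, the members detected per cell were most numerous under the deposited label MmTEC, the mature mTEC. The 6 newborn libraries held 21451 cells, of which 9083 had a TEC label and 518 were MmTEC, with 37 of the 38 members in the table (all but Rbp3). Medians of UMIs (unique molecular identifiers, 1 per captured transcript) per cell were 2391 to 4686 per library, and 88 cells carried a barcode that was also in another library. The labels were made from the same counts, so levels between labels are a description. In the text below, CPM is scaled in the same way to the UMIs of a label in a library.

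Cells were thinned to 2000 UMIs each to compare labels at 1 depth, which left out 92 of 518 MmTEC. A thinned MmTEC held 1.78 of the members on average and at most 8, and 20.2% held none. The mean was 0.602 in PAmTEC (post-Aire mTEC), 0.332 in PrTEC (proliferating), 0.295 in ItTEC (intertypical), 0.197 in PcTEC (perinatal cTEC) and 0.177 in McTEC (mature cTEC). Cells labelled Thy held 0.262 and nonepithelial stroma 0.112. With cells pooled the cTEC labels lay below Thy, but over libraries they overlapped. Thy had 0.208 ± 0.101 members per cell (SD, n = 6), PcTEC 0.193 ± 0.060 and McTEC 0.178 ± 0.080. Over libraries, MmTEC had 1.62 ± 0.54 members per cell (SD, n = 6), from 1 to 2.54, above the highest library of PcTEC (0.294), and the highest library of PAmTEC had 1. The small sTEC and TlTEC labels, of 32 and 21 cells, had 0.926 and 0.579.

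By mean CPM over libraries, 22 of the 37 members were highest in MmTEC, and 20 by the share of thinned cells. In wild-type libraries alone it was 23 by mean CPM. The share of all genes highest in MmTEC was not taken, so these counts only describe the members. Both genotypes are pooled in the other counts and shares. By library, the thinned MmTEC share of Csn2 was 51.4% to 79.6% in wild type and 31.25% to 61.8% in Tbx1+/-Crkl+/-. Csn2 was found in 61.97% of thinned MmTEC (66.6% unthinned), against 5.67% of thinned Thy cells, and had 1287 ± 734 CPM (SD, n = 6 libraries). Reg3g was in 32.6% of thinned MmTEC (40.3% unthinned) against 2.13% of Thy, with 413 ± 303 CPM. S100g was in 14.8% of thinned MmTEC (21.2% unthinned) against 2.13% of Thy, with 114 ± 47.4 CPM. The median depths were 3170 UMIs per MmTEC and 2071 per Thy cell. Apoa1, at 106 ± 68.2 CPM and in 6.57% of thinned MmTEC, had 0.709% in Thy.

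Most members had a UMI in few MmTEC. At a median depth of 3170 UMIs per MmTEC, a missing UMI does not show that a cell lacks the transcript. Shares of cells alone therefore do not tell low expression in many cells from expression in few. Of the 37 members, each with at least 1 UMI in the 518 cells, 3 were in over 20% of cells, 7 were in 5% to 20% and 27 in under 5%, with a median of 1.93% of cells. In Thy cells 15 members had no UMI and the median share was 0.187%. Mbp was in 12.55% of MmTEC and 11.96% of Thy cells and Chga in 8.49% and 6.54%, or 3.76% and 4.26% after thinning. For these 2 the share was at or near that of Thy, which is not a background for every label. Chga was in 1.35% of thinned nonepithelial stroma and 1.59% of thinned McTEC. Of the 29 members with at least 10 UMIs there, 9 had at least 1 in 3 of their UMIs in a single cell: Cela1, Csn1s2a, Ttr, Gcg, Fgb, Ltf, Apoc3, Mucl2 and Bglap. Gcg had 85 of 128 UMIs in 1 cell, Ttr had 67 of 78 and Mucl2 had 90 of 189.

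**Figure D4:**
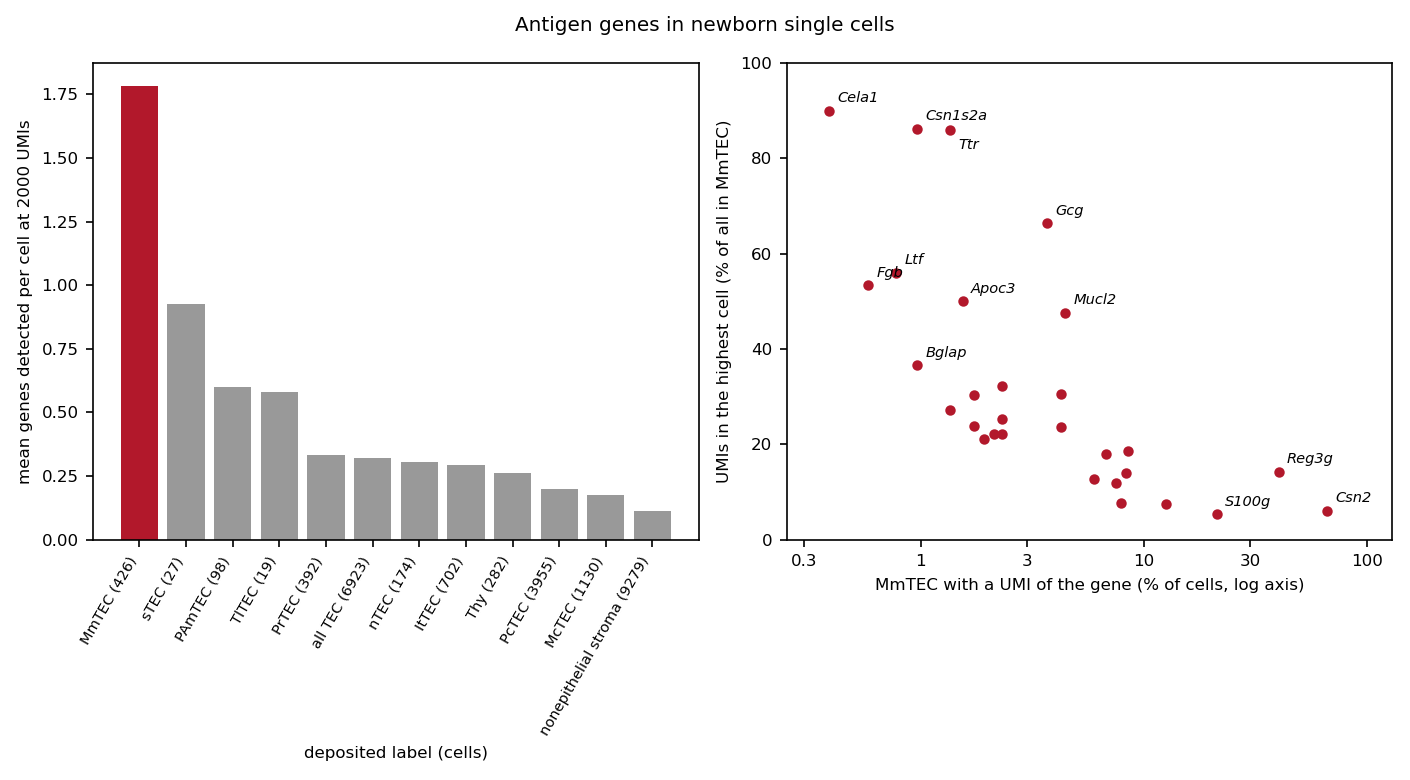
Left, mean number of members with a UMI per cell thinned to 2000 UMIs, by label, with the number of cells in brackets. Right, for members with at least 10 UMIs in MmTEC, the share of MmTEC with a UMI (log axis) against the share of the member's UMIs in its highest cell. MmTEC held 1.78 members per cell, and 9 of the 29 members plotted had at least 1 in 3 of their UMIs in 1 cell.

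The same unevenness decided several levels in other labels. Bpifa1 was highest in ItTEC, where 1279 of its 1392 UMIs (91.9%) came from 1 cell. Chga had 623 of 1033 McTEC UMIs in 1 cell, and all 114 Pyy UMIs and all 31 Csn1s1 UMIs of PAmTEC were in 1 cell each. Fgg was different: in PcTEC, its highest label, 532 UMIs were spread over 286 cells (5.93%), with 28.4 ± 12.9 CPM (SD, n = 6 libraries) against 9.64 CPM in MmTEC. Its bulk levels at P0, on another scale, had medians of 1.70 CPM in cTEC and 33.7 CPM in mTEC. Sag had like levels in PcTEC, MmTEC and ItTEC, at 26.9, 26.6 and 24.3 CPM.

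Neighbouring members were sometimes seen in the same cells. All 9 thinned MmTEC with a UMI of Csn1s1 also had Csn2, where the product of the shares would give 5.58 cells. Apoa1 and Apoc3 shared 3 cells (product 0.329) and Ppy and Pyy shared 2 (product 0.246), all with few cells and described only. Csn2 and Apoa1, on different chromosomes, also shared more cells (23) than the product of the shares (17.4).

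Aire itself had a UMI in 83.2% of MmTEC and Fezf2 in 55.2%. Among thinned MmTEC, the 328 cells with a UMI of Aire held 1.76 members on average and the 98 without held 1.86. The libraries were split on the direction, with more members in cells with Aire in WT replicate 1 and in Tbx1+/-Crkl+/- replicates 2 and 3, and fewer in the other 3. A missing UMI at this depth does not show that a cell lacks Aire.

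The last comparison asked whether the members differ between Tbx1+/-Crkl+/- newborns and their wild-type littermates. Crkl itself had 23.6 to 26.9 CPM over all cells in the libraries labelled Tbx1+/-Crkl+/- and 18.4 to 25.1 CPM in wild type. It was thus not lower under that label. Tbx1 had at most 19 UMIs in any library, too few for a check. The genotypes below are therefore those of the labels. In MmTEC 10 members could be tested, and 2 were lower in libraries labelled Tbx1+/-Crkl+/- and 0 higher (edgeR on UMIs summed per library), where 0.131% of all 6092 genes were lower and 0.0164% higher. The count depended on the settings: with no filter on low counts 11 of 37 were lower and 1 higher, and without wild-type replicate 1 it was 5 lower of 15, where 1.18% and 0.733% of all genes were lower.

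Mucl2 had 78.2, 241 and 78.8 CPM in wild-type replicates 1 to 3 and 14.9, 2.41 and 3.5004 CPM in the Tbx1+/-Crkl+/- replicates, a log2 fold change of -4.71 ± 0.68 (SE, adjusted p = 0.0215, edgeR). Pcp4 had 292, 73.01 and 103.3 CPM in wild type and 0, 19.2 and 10.5 CPM in Tbx1+/-Crkl+/-, with -3.53 ± 0.63 (adjusted p = 0.0352, edgeR). Neither overlapped between genotypes. The share of all MmTEC genes apart in this way was not taken, so here and below this only describes the values. Each passed the filter on low counts only through wild type, with at least 15 UMIs of Mucl2 per wild-type library against at most 2, and at least 34 of Pcp4 against at most 8, so a call of either could only be lower. Both rested on few cells, since 90 of the Mucl2 UMIs of wild-type replicate 2 were in 1 cell, and both calls were lost when any 1 Tbx1+/-Crkl+/- library was left out, although the log2 fold changes stayed at -5.48 to -4.16 for Mucl2 and -4.36 to -3.28 for Pcp4.

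The other 8 members were not called. Apoa1 (-1.68 ± 0.40, adjusted p = 0.162, edgeR), Reg3g (-1.45 ± 0.42, 0.276) and Csn2 (-1.06 ± 0.39, 0.377) had the lowest values, and Mbp, Sst, S100g and Gad1 lay between -0.83 and -0.28. Chga had 1.26 ± 0.64 (adjusted p = 0.521, edgeR). Csn2 had 850, 1615 and 2644 CPM in the wild-type replicates and 722, 979 and 910 CPM in Tbx1+/-Crkl+/-, so the groups overlapped, as they did for Sst, S100g, Gad1 and Chga. Apoa1 was apart, with 193, 111.7 and 178 CPM in wild type and 52.1, 74.6 and 24.5 CPM in Tbx1+/-Crkl+/-. Reg3g, with 281, 515 and 986 CPM against 186, 272 and 238 CPM, and Mbp, with 36.5, 47.2 and 54.3 CPM against 14.9, 31.3 and 31.5 CPM, did not overlap either. Cells labelled MmTEC had median depths of 2612 to 2844 UMIs in Tbx1+/-Crkl+/- and 3284 to 3913 in wild type, whose part was not tested.

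**Figure D5:**
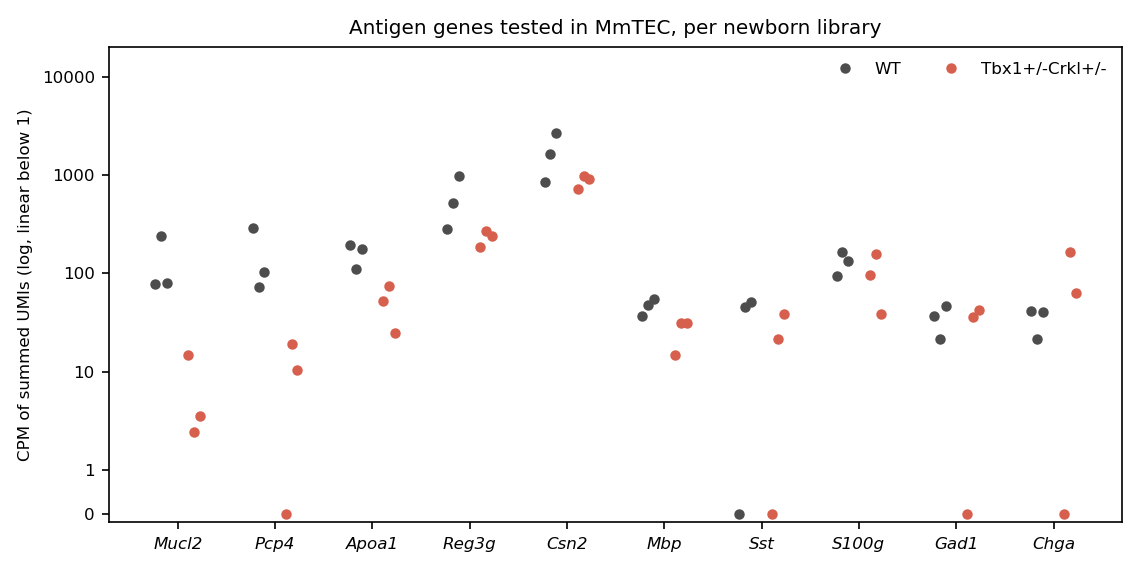
CPM of the 10 members tested in MmTEC (log axis, linear below 1), for 3 wild-type and 3 Tbx1+/-Crkl+/- newborn libraries; each point is 1 library. Mucl2 lay between 2.41 and 14.9 CPM in Tbx1+/-Crkl+/- and between 78.2 and 241 CPM in wild type.

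In the other labels tested 0 members were called by edgeR. ItTEC had 0 members that passed the filter (3.02% of its genes had an unadjusted p under 0.05), and labels with under 20 cells in a library were not tested. PcTEC had 5 members tested, of which 2 had an unadjusted p under 0.05, as did 7.34% of all genes: Csn2 with a log2 fold change of 1.70 ± 0.43 and Reg3g with 1.04 ± 0.40, against negative values in MmTEC (adjusted p = 0.643 for both, edgeR); the difference between labels was not tested. McTEC had 1 tested and 0 at an unadjusted p under 0.05 (5.33% of all genes), and PrTEC had 2 tested, where 0.108% of all genes were higher and 0.0538% lower. Over all TEC labels summed, 17 members were tested and 6 had an unadjusted p under 0.05, as did 6.2% of all 13718 genes. The adjusted p of each of the 6 was 0.689 (edgeR) and 0 genes were called, while DESeq2 called 2 members lower.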

How the data were processed

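Bulk libraries and droplet libraries were analysed from the deposited count tables. The bulk table held whole read counts per Ensembl gene, which the authors deposited without normalization, and the single-cell table held deposited UMI counts per gene and cell with the authors' cell labels. The submitters' processing notes name Cell Ranger 3.1.0, STAR 2.5.3a, HTSeq and mm10, and the strand setting of the counting was not given in the sources used here. The authors kept singlets by a doublet caller in the single-cell analysis they describe.

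Genes passing filterByExpr in the 36 bulk TEC libraries were normalized by TMM and tested with the quasi-likelihood test of edgeR 4.0.16 (R 4.3.3), with Benjamini-Hochberg adjustment over all genes and a threshold of 0.05; all 6 groups shared 1 fit. Muc6 did not pass the filter. The SE of an edgeR log2 fold change was computed as its absolute value over the square root of the quasi-likelihood F. For a member with a group at 0 it is no error of the fold. The comparison with nonepithelial stroma used 48 libraries. For genotype, UMIs were summed per library and label with at least 20 cells in every library. CPM was taken over all counts of a library, and over labels with at least 5 cells in a library. A fold against a group at 0 used a floor of 3 counts over the group. DESeq2 1.42.0, no filter, upper-quartile factors, only the groups compared, libraries of 1 title prefix (TXCK or DFCK, whose meaning the labels do not give), a replicate block and leaving out each library were alternatives. Motifs were searched in RefSeq promoters of GRCm38.p6, where 31 of 38 members matched, and gene positions came from GENCODE on GRCm38. Tested on simulated data of mTEChi and mTEClo (18136 genes), the fit recovered 43.62% of genes changed by a log2 of 2 and 55.56% of those changed by 4, with 3.03% false calls; in MmTEC (5629 genes) it recovered 90.48% and 100%, with 9.444% false.

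Full statistics are given per comparison for the 5 largest and 5 smallest changes among called members. The highest member of each of 11 tissue groups in mTEChi, and Aire and Fezf2, were to be named too. In some comparisons these have only part of their statistics or no value. For 4 other lists some of the 2 largest and 2 smallest called are named. One gene that this rule would name is not reported here. Any other gene named was chosen after its values were seen. The members and lists were chosen with earlier results of these data known. Columns of other series numbered 0.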

Additional observations from a re-analysis of the deposited data

Results flagged for a closer look

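The leading member of each of 11 tissue groups was looked at in the 6 libraries of mTEChi, of mTEClo and of mTEC at each age, which gave 44 sets of values, and in 9 of them 1 library stood far from the others. The limit used is set so that about 1 in 20 independent sets of normally distributed values would pass it by chance. These sets share libraries, and some are without counts in most libraries, such as Fgg, Tg and Cela1 in mTEClo. The number that passed is therefore not compared with that rate. Cela1, the pancreatic elastase, had its highest library far above the rest in mTEClo (6.92 CPM), in mTEC at 4 weeks (13.2 CPM) and in mTEC at P0 (3.49 CPM). In mTEClo, 1 library stood apart for Fgg (16.2 CPM), for Gad1 (31.1 CPM) and for Tg (12.9 CPM). Bpifa1 had 1 high library in mTEC at P0 (1949 CPM), Sag had 1 in mTEChi (12.8 CPM), and Csn2 had 1 low library in mTEC at P0 (518 CPM).

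The change from P0 to 4 weeks differed between mTEC and cTEC in 3 members by the test of the difference itself (edgeR). The difference in log2 fold change, mTEC minus cTEC, was 9.71 for Alb, -3.02 for Mbp and -4.99 for Bpifa1. Of all genes, 1.24% had a larger change in mTEC and 3.54% a smaller one. None of the 3 was called in TXCK or in DFCK libraries alone, and without cTEC replicate 5 at P0 the calls of Alb (7.17, adjusted p = 0.0799) and Mbp (-2.88, 0.0515) were lost.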

How the results depend on the processing

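Of 1637 single-member values under an alternative, 1535 kept their direction and side of the threshold, 80 lost the call, 10 gained it and 12 changed sign; those 12 were of members that were not called. The members higher in mTEChi than in mTEClo numbered 9 among TXCK libraries alone (6.69% of all genes). In the fit of only the groups compared and with the replicate block 1 member was lower (6.24% and 4.58% of all genes). For mTEC against cTEC at 4 weeks, 22 of 26 tested were higher in the fit of the groups compared (15.8% of all genes). With the block 21 were higher (13.6%). At P0 these fits gave 20 of 21 tested and 20 (27.2% and 27.9%). In mTEC with age, DESeq2 called 11 higher (6.21% of all genes) and the groups-only fit 9 (3.64%), and 1 was lower without the filter (1.76%). In cTEC with age, 2 of 6 tested were higher in the groups-only fit (12.3%). In TXCK and DFCK libraries 5 and 5 were higher there (5.15% and 1.95%). For the difference of the age changes, 0 were higher in the groups-only, TXCK and DFCK fits (1.19%, 0.62% and 0.106% of all genes). By DESeq2 4 were lower (5.82%), and in TXCK and DFCK 0 were (1.43% and 0.502%). The genotype test without the filter called 2 higher in PcTEC (0.345% of all genes), 1 in McTEC (0.0566%) and 1 in PrTEC (0.13%). It called 1 higher and 1 lower in ItTEC (0.179% and 0.0168%) and 1 higher and 11 lower in MmTEC (0.165% and 1.18%). DESeq2 called 2 lower over all TEC (0.0583%). Leaving out 1 library gave 20 to 23 higher in mTEChi (15.4% to 18.5% of all genes). In mTEC against cTEC it gave 33 to 35 at 4 weeks (24.1% to 27.2%) and 35 at P0 (26.9% to 28.5%). With age it gave 3 to 4 higher in mTEC (2.64% to 3.71%) and 8 to 10 in cTEC (7.82% to 9.43%). For the difference it gave 0 to 1 higher (0.864% to 1.41%) and 1 to 4 lower (2.92% to 4.07%). In MmTEC it gave 0 to 5 lower (0% to 0.733%), with 5 without wild-type replicate 1. The cause of these shifts was not tested beyond the smaller numbers of genes or libraries.

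The changes of sign were Bpifa1 in mTEChi against mTEClo (-0.33 in TXCK), and with age in mTEC Bpifa1 (-0.0420 in DFCK), Sag (0.0144 by DESeq2, 0.12 in TXCK, and -0.33 to 0.26 leaving out 1 library) and Cela1 (-1.02 in DFCK, and -0.20 to 2.13 leaving out 1 library). The bulk titles and single-cell libraries share numbers, and bulk populations of the same age hold the same ones. Deviations of same-numbered libraries had correlations of -0.03 to 0.05 in bulk and -0.47 to 0.11 in single cells. Some bulk libraries, but not all, correlated best with their own number, and no single-cell library did. The labels do not say whether same-numbered libraries came from the same mice, and these correlations do not decide it. The main tests did not pair libraries. The replicate block gave 16 higher members in mTEChi and 2 lower in MmTEC. Upper-quartile factors were not run for the 48-library fit, since 1 library has an upper quartile of 0. Upper-quartile scaling moved the median of all genes in mTEChi against mTEClo from 0.25 to 0.15. Depth limits the members at 0 to bounds, and counting intervals and floors cover counting error only.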
